A study of Mus musculus with 28 samples.

Results

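Skeletal muscle was compared with brown adipose tissue on 3 arrays each, the ones titled muscle 1 to 3 and brown adipose tissue 1 to 3, out of 28 arrays of a series on Lgr5-positive liver cells and their organoids. The tissue arrays served that series as a tissue comparison. Each was a mouse Agilent array with 2 colours, with the tissue's RNA in Cy3 and a commercial pool of mouse reference RNA (Stratagene) in Cy5. Of 28030 genes on the arrays, 21029 were tested, and all of them enter the comparison of muscle with brown adipose tissue. The labels give wildtype C57BL/6 mice for both tissues and total RNA for the extract. They give no age, sex, muscle or fat depot and no treatment of the animals. They call the 3 arrays of a tissue biological replicates without saying that each came from its own animal, so a p-value here measures the difference against the spread between these arrays, pooled over the groups of the series.

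Skeletal muscle fibres and brown adipocytes arise from related embryonic progenitors, and both are packed with mitochondria that they put to different uses. The fibre couples fuel oxidation to ATP, which myosin, calcium pumps and creatine kinase spend on contraction, and it can also run on glycogen alone. The brown adipocyte carries uncoupling protein 1 (Ucp1), which lets protons back across the inner mitochondrial membrane and turns the oxidation of fatty acids and glucose into heat. Brown fat lies against muscle in the animal, where the interscapular pads rest on the muscles of the back.

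A level below is the Cy3 signal of a probe as a multiple of the 75th percentile of its array. It compares arrays for a probe and does not compare genes with each other. The difference that was tested is on another scale, the log2 of Cy3 over Cy5 in muscle minus that in brown adipose tissue, given with its standard error and an adjusted p from limma, a linear model across all genes (Benjamini-Hochberg). A gene is said to have risen or fallen in muscle where the adjusted p was under 0.05 and the log2 difference at least 1 either way. This held for 5009 genes, 23.8% of those tested, of which 2780 (13.2%) were higher and 2229 (10.6%) lower in muscle. On the muscle arrays 51.8, 40.3 and 59.8% of probes stood well above background in the tissue's channel, against 67.6, 69.1 and 65.2% on the brown adipose arrays, and no probe was saturated. The log ratios of arrays correlated across genes at 0.922 to 0.959 within muscle, 0.945 to 0.971 within brown adipose tissue and 0.570 to 0.726 between them. No slide and no scan day held both tissues, so scan day and tissue cannot be told apart.

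The reference channel was not the same on the arrays of both tissues. For Ucp1 the Cy5 level was 0.00755, 0.0163 and 0.00813 on the muscle arrays, against 5.55, 5.99 and 6.00 on the brown adipose arrays, although Cy5 is labelled as the same reference RNA throughout. Among 166 genes whose Cy3 level differed by at least 5 on the log2 scale, Cy5 moved at least 1 the same way in 110. The median Cy5 shift in the direction of Cy3 was 1.66 in these genes and 0.068 over all genes. Dividing by Cy5 therefore shrank the largest differences, and the origin of the Cy5 shift was not tested. It was uneven between the gene lists below. The median Cy5 difference was 1.97 for the thick filament, 2.04 for the thin filament and Z-disc and -1.58 for thermogenic genes. For the respiratory chain and ATP synthase it was -0.105, against 0.097 over all genes. The ratio thus does not put these lists on an equal footing. Counts below are thus given also for Cy3 alone, scaled to the 75th percentile of the array, where 6082 genes passed (28.9%), 3061 higher (14.6%) and 3021 lower (14.4%) in muscle. Both measures called 2246 genes higher and 2048 lower in muscle. Of the genes called by Cy3 alone, 132 had a ratio difference of the opposite sign. Only 1 of these, the lipid droplet protein gene Plin1, was also called by ratio, and so in opposite directions.

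**Figure D1:**
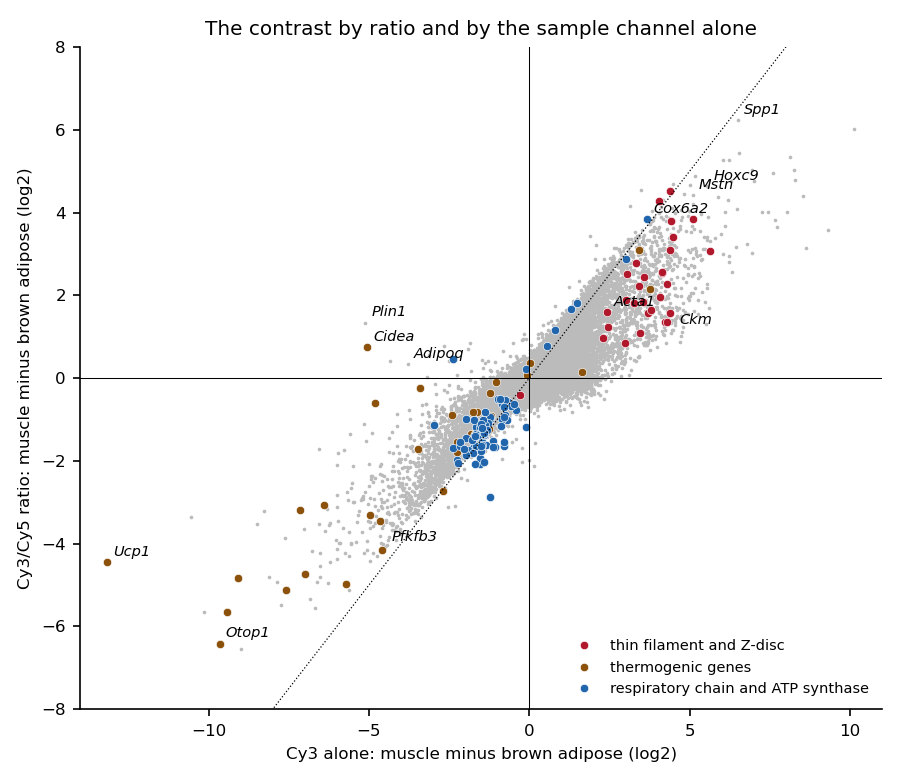
Each point is a gene tested, with the muscle minus brown adipose difference (log2) by Cy3 alone on the x axis and by the Cy3/Cy5 ratio on the y axis, and 3 gene lists in colour. The dotted line marks equal values: Ucp1 lies at -13.17 by Cy3 and -4.45 by ratio, and Plin1, Cidea and Adipoq lie left of 0 by Cy3 and above 0 by ratio.

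The markers of the labelled tissues separated the arrays, with muscle genes present on both sides. The 10 marker genes of the skeletal muscle fibre summed to levels of 2126, 2756 and 2167 on the muscle arrays, against 595, 572 and 104 on the brown adipose arrays. Brown adipose arrays 1 and 2 thus carried several times the fibre signal of array 3. For brown adipocytes, 10 markers summed to 13.4, 15.8 and 12.1 in muscle, against 600, 529 and 638 in brown adipose tissue. A further 10 markers of adipocytes of any kind summed to 302, 126 and 145 in muscle, highest on array 1, against 1064, 1091 and 1218 in brown adipose tissue. Fibre genes were also uneven on the 3 white adipose arrays of the series, at 1436, 41.5 and 540. The part that muscle fibres in the brown adipose samples, or fat in the muscle samples, had in any difference below was not tested. Counts without brown adipose replicates 1 and 2 are therefore given beside the main ones, where the lone array left is taken to vary as the other groups do. In bulk tissue, fewer cells of a type and less RNA per cell cannot be told apart.

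**Figure D2:**
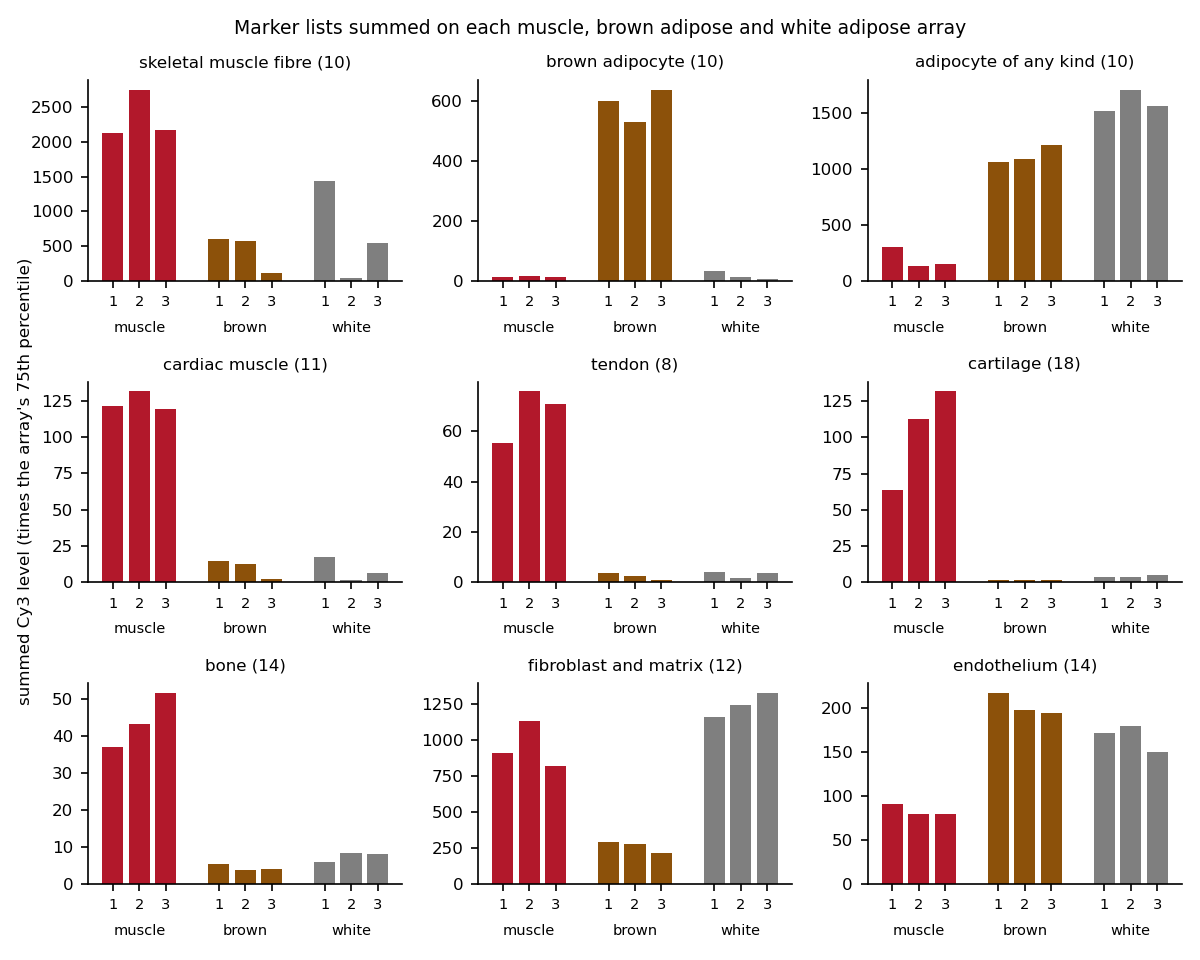
Summed Cy3 levels (times the array's 75th percentile, linear axes from 0) of marker lists on the 3 muscle, 3 brown adipose and 3 white adipose arrays, with the number of genes in brackets. Fibre markers reach 595 and 572 on brown adipose arrays 1 and 2 and 104 on array 3, while tendon, cartilage and bone genes are high on the muscle arrays alone.

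Of the marker genes themselves, skeletal alpha-actin (Acta1), the actin of the fibre's thin filament, had levels of 387, 526 and 392 on the muscle arrays, against 148, 144 and 24.2 on the brown adipose arrays. All muscle values lay above all brown adipose values, but the log2 difference of 1.59 ± 0.74 did not pass (adjusted p = 0.0865), nor did that of Cy3 alone, 2.43 ± 1.14 (adjusted p = 0.115). The standard error pools the spread of all 13 groups, among them the white adipose arrays with their uneven fibre signal. A fibre gene that did not pass is therefore not shown to be alike in the 2 tissues. Muscle creatine kinase (Ckm), which regenerates ATP from phosphocreatine, had 81.8, 59.8 and 110.3 in muscle, against 7.38, 7.56 and 0.878 in brown adipose tissue. Its difference was 1.15 ± 0.83 by ratio (adjusted p = 0.269) and 4.48 ± 1.22 by Cy3 alone (adjusted p = 0.00841). Ucp1 had 0.129, 0.0168 and 0.00632 in muscle, where 1 of 3 arrays was well above background, against 228, 194 and 241 in brown adipose tissue. It fell in muscle by 4.45 ± 0.78 on the log2 scale by ratio (adjusted p = 9.37e-05) and by 13.17 ± 1.68 by Cy3 alone (adjusted p = 1.02e-05). With 2 of the 3 muscle values not well above background, these sizes are approximate.

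**Figure D3:**
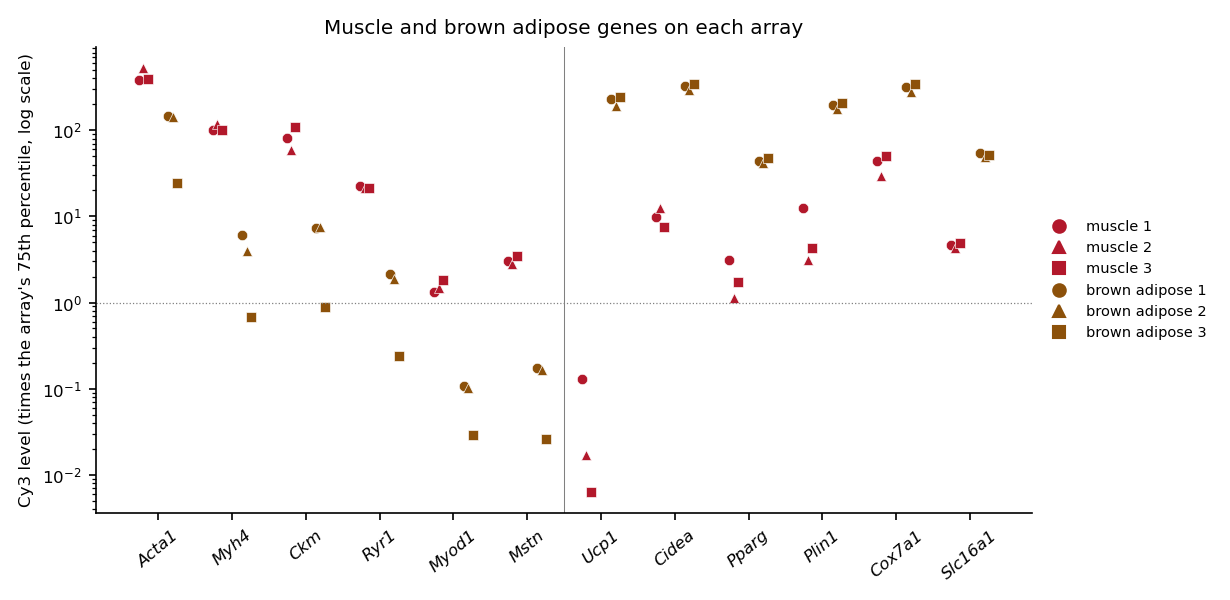
Cy3 levels (times the array's 75th percentile, log axis) of 6 muscle genes and 6 brown adipose genes on each of the 3 muscle and 3 brown adipose arrays, a point per array. Brown adipose array 3 is the lowest array for each muscle gene shown, and muscle array 1 is the highest muscle array for Ucp1 and Plin1.

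The thick filament is built from myosin heavy and light chains with myosin-binding and M-band proteins. Of 19 thick filament genes tested, 9 rose in muscle and none fell by ratio, and 13 rose by Cy3 alone, where 13.2% and 14.6% of all genes rose. The list median was 1.36 by ratio and 3.73 by Cy3, against -0.004 and -0.017 over all genes. Myosin-binding protein H (Mybph) had 21.2, 20.4 and 18.05 in muscle, against 0.424, 0.607 and 0.0922 in brown adipose tissue, a rise of 4.01 ± 0.57 (adjusted p = 8.94e-06). The myosin kinase gene Mylk4 rose by 4.07 ± 0.47, the M-band gene Myom1 by 2.75 ± 0.60 and the skeletal myosin light chain kinase Mylk2 by 2.35 ± 0.64. The fast myosin heavy chain Myh4 had 99.9, 116.8 and 99.9 in muscle, against 6.03, 3.94 and 0.686 in brown adipose tissue, and rose by 2.08 ± 0.83 (adjusted p = 0.0456). The slow and cardiac heavy chain Myh7 had 166, 181 and 188 in muscle, against 92.4, 77.4 and 10.2 in brown adipose tissue, and passed neither by ratio (0.59 ± 0.77, adjusted p = 0.562) nor by Cy3 alone. When any 1 of the 3 muscle arrays, or brown adipose array 3, was left out, the count by ratio was 4 in place of 9. Without brown adipose array 3 the count by Cy3 alone was 7 in place of 13. The count by ratio was 16 with the 6 arrays fitted by themselves, 3 with the white adipose arrays added to these, and 5 with Agilent's own log ratio. It was 7 by ratio and 13 by Cy3 alone without brown adipose replicates 1 and 2.

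Heavy chains of developing fibres were above background on all arrays of both tissues. Embryonic myosin (Myh3) had levels of 250, 319 and 254 in muscle, against 47.1, 39.1 and 4.69 in brown adipose tissue. Perinatal myosin (Myh8) had 399, 570 and 400.2 in muscle, against 144, 129 and 27.6 in brown adipose tissue. By ratio neither passed (Myh3 0.98 ± 0.62, adjusted p = 0.208; Myh8 0.64 ± 0.49, adjusted p = 0.299), while Myh3 did by Cy3 alone (3.73 ± 1.07, adjusted p = 0.0113). The labels give no age, and how far probes of these closely related genes share signal was not tested.

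The thin filament and Z-disc list holds the actins, troponins, tropomyosins and the proteins that anchor them. Of 29 genes tested, 18 rose in muscle by ratio and 22 by Cy3 alone, and none fell by either measure, with medians of 1.97 and 3.79. The tropomyosin Tpm2, which lies along the actin filament, had 138, 138 and 151 in muscle, against 11.3, 10.2 and 2.66 in brown adipose tissue. It rose by 4.51 ± 0.55 (adjusted p = 1.76e-06), and Tpm1 by 4.29 ± 0.65. Cardiac alpha-actin (Actc1), which developing skeletal muscle also uses, rose by 3.84 ± 0.56. The fast-fibre Z-disc protein Actn3 had 50.1, 41.5 and 70.3 in muscle, against 3.71, 4.53 and 0.905 in brown adipose tissue, a rise of 3.80 ± 0.63. The remaining 11 members included bright genes whose arrays did not overlap, such as the troponins Tnnc2 and Tnni2, with differences of 0.96 ± 0.57 and 1.23 ± 0.60. With the 6 arrays fitted by themselves 26 genes rose by ratio, and with the white adipose arrays added to these 12 did. Without brown adipose replicates 1 and 2, 19 rose by ratio and 22 by Cy3 alone; with Agilent's own log ratio, median-centred, 10 rose, and by Cy3 alone 12 rose without brown adipose array 3.

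The promoters of 2 sarcomere genes are shown because their 250 bases before the annotated start hold several motifs known for muscle transcription. They come from RefSeq (GRCm38.p6), are printed 5′ to 3′ on the gene's strand, and have motif matches in capitals: the CArG box, which serum response factor binds, the MEF2 site, and CAGCTG, an E-box of the kind that MyoD binds. The Acta1 window is chr8:123894776-123895025 on the minus strand, and the Myh4 window is chr11:67237562-67237811 on the plus strand.
Acta1: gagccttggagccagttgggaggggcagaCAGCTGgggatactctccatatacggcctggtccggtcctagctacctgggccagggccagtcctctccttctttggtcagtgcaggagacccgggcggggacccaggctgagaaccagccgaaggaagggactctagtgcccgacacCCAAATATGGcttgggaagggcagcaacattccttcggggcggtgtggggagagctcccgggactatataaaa
Myh4: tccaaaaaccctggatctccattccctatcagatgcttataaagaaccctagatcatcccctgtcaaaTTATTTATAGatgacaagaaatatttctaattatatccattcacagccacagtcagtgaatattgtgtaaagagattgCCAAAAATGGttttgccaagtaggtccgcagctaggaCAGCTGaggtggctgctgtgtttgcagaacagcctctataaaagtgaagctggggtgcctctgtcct
In Acta1 the capitals are a CAGCTG from -221 to -216 and a CArG box from -73 to -64, counted from the start. In Myh4 they are a MEF2 site from -182 to -173, a CArG box from -104 to -95 and a CAGCTG from -67 to -62, and none of these matches overlap. Over windows from 250 bases before the start to 50 after it, searched on both strands, 3 of 17 thick filament genes held a CArG box, 5 a MEF2 site and 7 a CAGCTG. For thin filament and Z-disc genes it was 3, 3 and 7 of 19. Among 13235 tested genes with a window, 1.42% held a CArG box, 2.16% a MEF2 site and 15.7% a CAGCTG. The median GC content of the windows was 48.3% for thick filament, 58.3% for thin filament and Z-disc and 59.3% for all genes tested. The part of base composition in these shares was not tested. A match describes letters in the window and not a bound site.

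Fibre-type isoforms rose on both the fast and the slow side. Of 13 fast isoforms 6 rose by ratio and 8 by Cy3 alone, with medians of 1.65 and 3.38, and of 12 slow isoforms 6 and 9 rose, with medians of 1.29 and 3.28. The fast calcium pump Atp2a1 and the calcium buffer parvalbumin (Pvalb) rose by 2.95 ± 0.54 and 2.29 ± 0.42. On the slow side, troponin T1 (Tnnt1) had 117, 120 and 135 in muscle, against 26.6, 26.5 and 2.74 in brown adipose tissue, and rose by 2.79 ± 0.64, with slow troponins C (Tnnc1, 2.51 ± 0.54) and I (Tnni1, 1.97 ± 0.49). The fast count by ratio was 3 when any 1 muscle array, or brown adipose array 3, was left out. With the 6 arrays fitted by themselves the fast and slow counts were 12 and 10, and with the white adipose arrays added to these 3 and 4. They were 11 and 11 after quantile normalization between arrays, against 2 and 2 with Agilent's own log ratio. By Cy3 alone, 3 fast and 3 slow isoforms rose without brown adipose array 3, and 5 and 5 without muscle array 3.

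Nearly every gene of excitation-contraction coupling rose. This machinery carries the action potential into the T-tubules and releases calcium from the sarcoplasmic reticulum. By ratio 20 of 21 genes rose, and by Cy3 alone 20, with medians of 2.29 and 3.99. The calcium release channel of that store, Ryr1, had 22.4, 21.6 and 21.5 in muscle, against 2.14, 1.87 and 0.237 in brown adipose tissue, a rise of 2.62 ± 0.65 (adjusted p = 0.00253). The voltage sensor that opens it, Cacna1s, had 60.3, 67.0 and 61.9 in muscle, against 9.06, 8.23 and 1.16 in brown adipose tissue, and rose by 3.28 ± 0.65. The largest rises were those of the calcium channel subunit Cacna2d1 (3.91 ± 0.30) and the second release channel Ryr3 (3.87 ± 0.27). They were followed by the junction protein Jph1 (3.57 ± 0.39) and the coupling adaptor Stac3 (3.44 ± 0.53). The exception was sarcolipin (Sln), an inhibitor of the calcium pump, with 178, 232 and 207 in muscle, against 47.6, 39.8 and 6.33 in brown adipose tissue. Its difference did not pass by ratio (0.90 ± 0.88, adjusted p = 0.425) or by Cy3 alone (3.16 ± 1.36, adjusted p = 0.0832). The counts were 20 by ratio and 19 by Cy3 alone without brown adipose replicates 1 and 2, and with Agilent's own log ratio 10 rose.

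At the neuromuscular junction 10 of 13 genes rose by each measure. Here motor nerves release acetylcholine onto a receptor whose gamma subunit (Chrng) is used by fetal and newborn or denervated muscle and whose epsilon subunit (Chrne) replaces it in adult muscle. Chrng had 9.82, 15.2 and 9.95 in muscle, against 1.14, 0.851 and 0.0884 in brown adipose tissue, and rose by 3.61 ± 0.51 (adjusted p = 7.83e-06). Chrne had 0.113, 0.0797 and 0.148 in muscle, against 0.0850, 0.0708 and 0.0370 in brown adipose tissue, so that the arrays overlapped, and its difference of 0.37 ± 0.26 did not pass (adjusted p = 0.25). The alpha subunit Chrna1 rose by 3.90 ± 0.54 and the agrin receptor Lrp4 by 3.14 ± 0.28. The kinase gene Musk, which organizes the synapse, was well above background on 1 of 6 arrays.

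The myogenic transcription factors, which start the muscle program, rose in 13 of 18 cases by ratio and 14 by Cy3 alone, with medians of 1.53 and 3.07. Myod1, the factor that can turn other cells into muscle, had 1.32, 1.49 and 1.81 in muscle, against 0.106, 0.102 and 0.0286 in brown adipose tissue, a rise of 2.76 ± 0.20 (adjusted p = 1.84e-09). Myogenin (Myog), which drives fusion and differentiation, had 23.2, 25.9 and 23.6 in muscle, against 1.74, 1.52 and 0.216 in brown adipose tissue, and rose by 2.88 ± 0.48. Myf6 rose by 3.82 ± 0.53, Mef2c by 3.31 ± 0.30 and Eya4 by 3.17 ± 0.42. Tbx1, known for the muscles of the head, rose by 4.21 ± 0.38. The general MEF2 factors Mef2a and Mef2d did not differ past the threshold (0.20 ± 0.22 and 0.16 ± 0.19). The stem cell factor Pax7 missed the fold minimum by ratio (0.77 ± 0.19) and passed by Cy3 alone (2.22 ± 0.56).

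Proteins of the membrane skeleton and of turnover followed. In the dystrophin complex and sarcolemma list 11 of 16 genes rose by each measure, with medians of 1.40 and 1.62, led by Popdc3 (3.23 ± 0.30), dystrobrevin (Dtna, 3.08 ± 0.23) and the protease gene Capn3 (2.30 ± 0.39). Dystrophin itself (Dmd) had 3.01, 3.00 and 3.03 in muscle, against 1.09, 0.996 and 0.625 in brown adipose tissue, and rose by 1.21 ± 0.47 (adjusted p = 0.0393). Its relative utrophin (Utrn), with a broad expression, differed by 0.20 ± 0.19 (adjusted p = 0.397). By Cy3 alone the list count was 6 without brown adipose array 3 and 7 without replicates 1 and 2, in place of 11, and with Agilent's own log ratio it was 6. Of the muscle ubiquitin ligases and Kelch proteins 11 of 15 rose by ratio and 12 by Cy3 alone, or 7 by Cy3 alone without brown adipose array 3 and 7 with Agilent's own log ratio. They included the atrophy ligase Trim63 (MuRF1, 3.11 ± 0.49), while the other atrophy ligase, Fbxo32, had 0.82 ± 0.33 and missed the fold minimum. Klhl30, Asb5 and Klhl40, which stabilizes the thin filament, rose by 3.34 ± 0.42, 3.25 ± 0.42 and 2.97 ± 0.57.

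Among 15 genes for myokines and other secreted proteins 7 rose by each measure and none fell. Myostatin (Mstn), the secreted inhibitor of muscle growth, had 3.06, 2.79 and 3.48 in muscle, against 0.174, 0.164 and 0.0263 in brown adipose tissue. It rose by 4.43 ± 0.45 (adjusted p = 1.48e-07). Osteocrin (Ostn) was not well above background on any brown adipose array and was at least 4.39-fold higher in muscle (adjusted p = 6.15e-08). Such bounds set the mean normalized Cy3 signal of the brighter tissue against the lowest signals above background of the other, and are open to dye bias since no dyes were swapped. Follistatin-like 1 (Fstl1), a glycoprotein of connective tissue, rose by 2.75 ± 0.34, and Angptl7 by 1.61 ± 0.37. The fetal growth factor Igf2 had 201, 271 and 221 in muscle, against 72.3, 64.2 and 45.2 in brown adipose tissue, and was called by Cy3 alone (1.95 ± 0.39, adjusted p = 0.000749) but missed the fold minimum by ratio (0.80 ± 0.15).

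**Figure D4:**
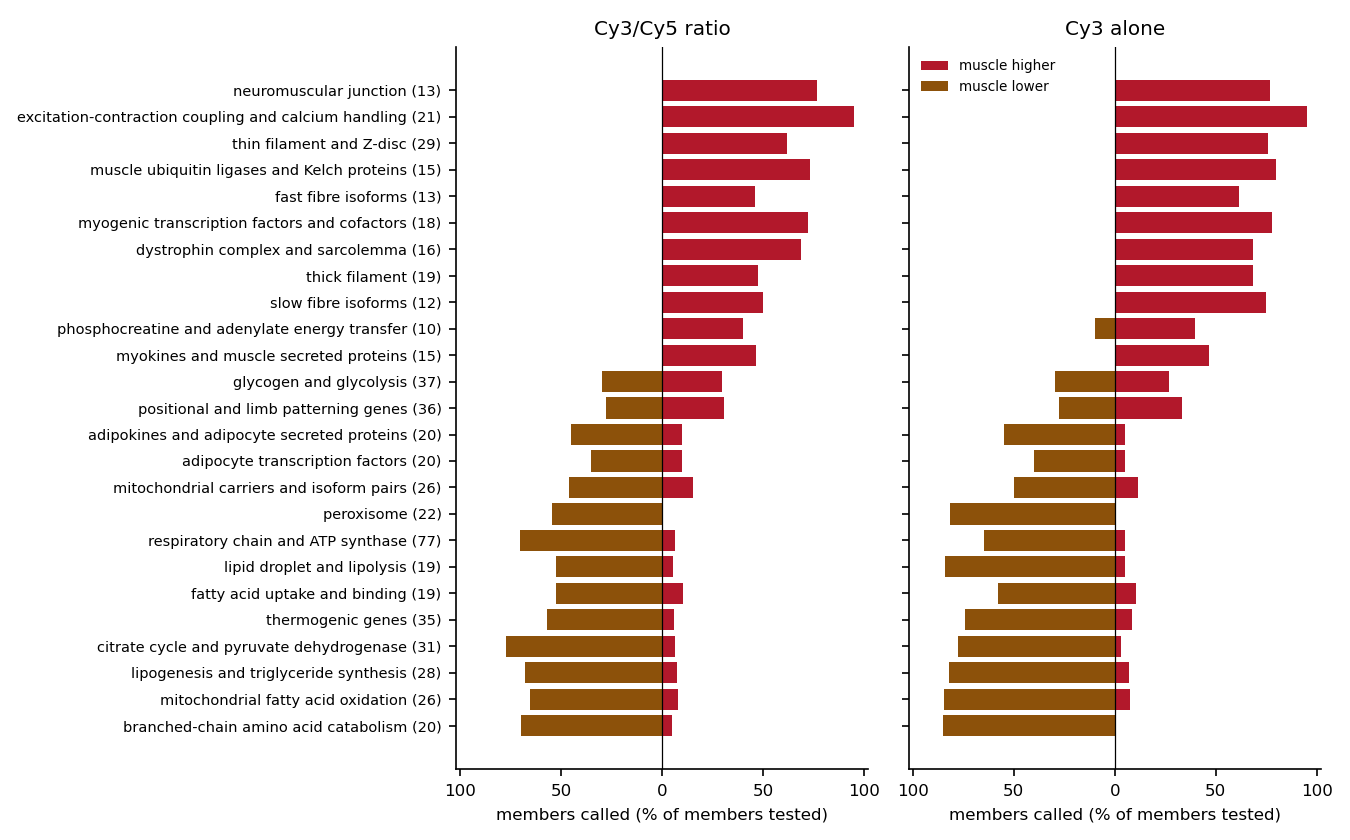
Share of each gene list (number tested in brackets) called higher in muscle, to the right, or lower in muscle, to the left, by the Cy3/Cy5 ratio and by Cy3 alone. Over all genes the shares are 13.2% and 10.6% by ratio and 14.6% and 14.4% by Cy3 alone.

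The thermogenic genes mostly fell in muscle. Of 35 tested, 20 fell and 2 rose by ratio, and 26 fell and 3 rose by Cy3 alone, where 10.6% and 14.4% of all genes fell, with medians of -1.34 and -2.70. Otop1, a proton channel gene, had 0.0218, 0.0201 and 0.00663 in muscle, not well above background on any array, against 12.0, 9.40 and 13.7 in brown adipose tissue. It was at least 47.1-fold lower in muscle (adjusted p = 2.19e-18). Slc27a2, which takes up fatty acids and couples them to CoA, was at least 43.7-fold lower in muscle, and the elongase gene Elovl3 at least 9.74-fold, each with no muscle array above background. The adrenergic receptor gene Adrb1, through which norepinephrine acts, had 0.0205, 0.0141 and 0.0378 in muscle, against 6.33, 5.44 and 2.28 in brown adipose tissue, and fell by 5.13 ± 0.35, with 1 of 3 muscle arrays well above background. Glycerol kinase (Gk), which lets brown fat reuse glycerol, had 0.236, 0.194 and 0.266 in muscle, against 12.1, 10.4 and 14.3 in brown adipose tissue, and fell by 4.98 ± 0.19 (adjusted p = 5.61e-13). Deiodinase 2 (Dio2), which makes active thyroid hormone, had 0.578, 0.675 and 1.08 in muscle, against 13.9, 7.89 and 5.23 in brown adipose tissue, and fell by 1.72 ± 0.22 (adjusted p = 2.82e-06).

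Several defining genes of brown fat were called lower by Cy3 alone and not by ratio. Cidea, a protein of the lipid droplet, had levels of 9.73, 12.5 and 7.60 in muscle, against 323, 297 and 349 in brown adipose tissue. Its difference was 0.74 ± 0.71 by ratio (adjusted p = 0.415) and -5.05 ± 1.23 by Cy3 alone (adjusted p = 0.00396), and the Cy5 level of Cidea was itself 0.159, 0.171 and 0.128 on muscle arrays, against 9.44, 9.27 and 9.73 on brown adipose arrays. Prdm16, which holds the brown adipocyte fate, had -0.90 ± 0.51 by ratio and -2.40 ± 0.50 by Cy3 alone. The mitochondrial coactivator Ppargc1a had 1.52, 1.48 and 1.65 in muscle, against 5.52, 5.19 and 4.95 in brown adipose tissue. It missed the threshold by ratio (-0.82 ± 0.34, adjusted p = 0.0521) and passed by Cy3 alone (-1.75 ± 0.65, adjusted p = 0.0448). The fatty acid receptor gene Ppara had 0.816, 0.661 and 1.38 in muscle, against 18.5, 27.6 and 33.0 in brown adipose tissue, with -0.60 ± 0.25 by ratio and -4.82 ± 0.44 by Cy3 alone.

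The members that rose in muscle by both measures were Tbx15 and Cited1, and the third by Cy3 alone, Bmp8b, was not well above background on any of the 6 arrays. Tbx15, a T-box factor known from glycolytic fibres and from adipocyte precursors, had 5.69, 6.34 and 5.18 in muscle, against 0.680, 0.575 and 0.380 in brown adipose tissue, and rose by 3.10 ± 0.25 (adjusted p = 7.55e-09). Cited1 rose by 2.16 ± 0.25. Zic1, a factor of classical brown fat, fell by 2.73 ± 0.26. Among the uncoupling proteins other than Ucp1, Ucp3, known from muscle and brown fat, had 0.633, 0.398 and 0.646 in muscle, against 1.51, 2.04 and 1.79 in brown adipose tissue, and fell by 1.35 ± 0.34 (adjusted p = 0.00246). Ucp2 missed the fold minimum by ratio (-0.91 ± 0.17) and fell by Cy3 alone (-1.21 ± 0.27). The list counts without brown adipose replicates 1 and 2 were 20 lower and 2 higher by both measures.

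The promoter of Ucp1 is shown as that of the marker gene of brown adipose tissue. Its 250 bases before the start lie at chr8:83290098-83290347 on the plus strand (GRCm38.p6) and hold no CArG box, MEF2 site, CAGCTG or site of nuclear respiratory factor 1 (GCGC, any base, then TGCGC). The enhancer known for brown fat lies farther upstream than this window.
Ucp1: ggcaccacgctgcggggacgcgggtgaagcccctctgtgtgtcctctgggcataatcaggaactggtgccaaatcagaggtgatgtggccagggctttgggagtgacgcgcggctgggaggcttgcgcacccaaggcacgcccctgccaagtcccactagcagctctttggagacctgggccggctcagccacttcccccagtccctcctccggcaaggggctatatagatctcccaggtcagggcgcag

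The general adipocyte program was also lower in muscle, but partly present there. Of 20 adipocyte transcription factors 7 fell and 2 rose by ratio, and 8 fell and 1 rose by Cy3 alone. Pparg, the master regulator of adipocytes, had 3.10, 1.13 and 1.72 in muscle, against 43.7, 41.5 and 47.8 in brown adipose tissue, and fell by 3.13 ± 0.27 (adjusted p = 1.52e-08). Cebpb and Cebpa, which act with it, fell by 3.11 ± 0.38 and 2.31 ± 0.50, and the oxysterol receptor gene Nr1h3 by 2.01 ± 0.47. Of 20 secreted adipocyte proteins 9 fell and 2 rose by ratio, and 11 fell and 1 rose by Cy3 alone, or 7 and 1 without brown adipose replicates 1 and 2. The largest falls were in the growth factor Nrg4, known as a signal of brown fat to other tissues (4.73 ± 0.42), Nampt (3.07 ± 0.26), Orm1 (2.86 ± 0.48) and the angiogenic factor Vegfa (2.69 ± 0.19). Adiponectin (Adipoq) had 24.6, 5.79 and 8.01 in muscle, highest on array 1, against 126, 140 and 171 in brown adipose tissue. It passed by Cy3 alone (-3.79 ± 1.05, adjusted p = 0.00953) and had the opposite sign by ratio (0.34 ± 0.45, adjusted p = 0.567). Leptin (Lep) was well above background on 1 of 6 arrays.

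Lipid synthesis and storage fell in muscle. Of 28 genes of lipogenesis and triglyceride synthesis 19 fell and 2 rose by ratio, and 23 fell and 2 rose by Cy3 alone, with medians of -1.77 and -2.68. Dgat2, which adds the last acyl chain to a triglyceride, had 9.52, 6.24 and 5.65 in muscle, against 176, 157 and 169 in brown adipose tissue, and fell by 3.63 ± 0.30 (adjusted p = 1.05e-08). Agpat2, an earlier step of the same pathway, fell by 4.01 ± 0.29, and the elongase Elovl6 by 3.02 ± 0.27. Fatty acid synthase (Fasn) had 24.9, 19.5 and 19.0 in muscle, against 101, 101 and 166 in brown adipose tissue, and fell by 1.92 ± 0.47 (adjusted p = 0.00225). Acly, which supplies its acetyl-CoA, missed the fold minimum by ratio (-0.89 ± 0.36) and fell by Cy3 alone (-1.33 ± 0.45). The desaturases Scd2 and Fads1 rose in muscle, by 1.79 ± 0.27 and 1.18 ± 0.32.

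On the lipid droplet, 10 of 19 genes fell and 1 rose by ratio, while 16 fell and 1 rose by Cy3 alone. The coat protein Plin2 fell by 3.29 ± 0.34, the glycerol channel Aqp7 by 4.13 ± 0.62 and the phosphodiesterase Pde3b by 3.10 ± 0.33. Plin1, the coat protein that guards the adipocyte droplet, had 12.4, 3.12 and 4.26 in muscle, against 195, 175 and 208 in brown adipose tissue. By Cy3 alone it fell by 5.13 ± 0.76 (adjusted p = 4.65e-05), and by ratio it was called higher, by 1.34 ± 0.34 (adjusted p = 0.00276). The cause of the opposite signs was not tested. The gene called higher by Cy3 alone was Fitm1, the muscle form of a droplet-forming protein (4.22 ± 1.34). Of 19 genes for fatty acid uptake and binding 10 fell and 2 rose by ratio, and 11 fell and 2 rose by Cy3 alone. Among them the acyl-CoA synthetase Acsl1 fell by 3.08 ± 0.30 and the lipoprotein receptor Vldlr by 2.46 ± 0.49, while Acsl6 and Acsl3 rose by 1.53 ± 0.19 and 1.29 ± 0.19. The binding proteins Fabp3, the muscle and heart form, and Fabp4, the fat form, did not pass by either measure. Fabp3 had 35.8, 34.5 and 36.7 in muscle, against 27.6, 29.4 and 14.7 in brown adipose tissue.

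Most genes of fuel oxidation in the mitochondrion and the peroxisome fell in muscle. Of 26 genes of mitochondrial fatty acid oxidation 17 fell and 2 rose by ratio, and 22 fell and 2 rose by Cy3 alone, with medians of -1.95 and -2.49. Cpt2, which completes the entry of fatty acids into the matrix, had 11.03, 10.9 and 8.90 in muscle, against 113, 91.2 and 125 in brown adipose tissue, and fell by 3.03 ± 0.21 (adjusted p = 1.35e-09). Acadvl and Eci1, which act on the chain inside, and Etfdh, which passes the electrons on, fell by 3.12 ± 0.22, 3.03 ± 0.20 and 2.96 ± 0.22. The muscle-type carnitine transferase Cpt1b had 8.60, 8.45 and 8.95 in muscle, against 64.7, 49.7 and 58.7 in brown adipose tissue, and was called lower by Cy3 alone (-2.73 ± 0.52) but not by ratio (-0.71 ± 0.34, adjusted p = 0.0957). Its liver-type relative Cpt1a differed by -0.10 ± 0.21. The genes that rose were those of ketone body use, Bdh1 (2.06 ± 0.39) and Oxct1 (1.34 ± 0.27), with Oxct1 at 31.7, 28.1 and 37.8 in muscle, against 13.9, 14.6 and 13.3 in brown adipose tissue.

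In the peroxisome, which shortens very long and branched fatty acids, 12 of 22 genes fell by ratio and 18 by Cy3 alone, and none rose. Phyh, which starts the breakdown of phytanic acid, had 2.26, 2.19 and 2.77 in muscle, against 47.5, 50.8 and 57.7 in brown adipose tissue, a fall of 4.03 ± 0.19 (adjusted p = 5.85e-12). The division factor Pex11a and catalase (Cat) fell by 2.92 ± 0.43 and 2.76 ± 0.32. For the breakdown of branched-chain amino acids, 14 of 20 genes fell and 1 rose by ratio, and 17 fell and none rose by Cy3 alone. Bckdhb, a subunit of the complex that commits these amino acids to oxidation, had 2.26, 1.49 and 1.78 in muscle, against 45.3, 48.2 and 55.4 in brown adipose tissue. It fell by 4.31 ± 0.18 (adjusted p = 1.09e-12), and the later enzymes Aldh6a1 and Hibch by 3.78 ± 0.23 and 2.74 ± 0.24. The gene that rose by ratio was the cytosolic transaminase Bcat1 (1.45 ± 0.23).

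In the citrate cycle and pyruvate dehydrogenase list 24 of 31 genes fell and 2 rose by ratio, and 24 fell and 1 rose by Cy3 alone, with medians of -1.60 and -1.95. Pyruvate carboxylase (Pcx), which refills the cycle and serves fat synthesis, fell by 3.22 ± 0.39, and Sucla2, Idh3a and Dld by 2.47 ± 0.17, 2.31 ± 0.30 and 2.25 ± 0.17. Citrate synthase (Cs), an enzyme whose activity rather than RNA is a usual measure of mitochondrial content, had 99.6, 88.0 and 99.4 in muscle, against 189, 166 and 194 in brown adipose tissue. Its arrays did not overlap, and its difference missed the fold minimum (-0.83 ± 0.26, adjusted p = 0.013). The kinases that switch pyruvate dehydrogenase off differed in direction: Pdk4 had 10.55, 10.46 and 9.63 in muscle, against 103, 87.1 and 86.7 in brown adipose tissue, and fell by 1.82 ± 0.48, while Pdk3 had 1.39, 1.26 and 1.45 in muscle, against 0.286, 0.228 and 0.163 in brown adipose tissue, and rose by 2.18 ± 0.20. After quantile normalization between arrays 15 genes of this list fell.

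The respiratory chain and ATP synthase list showed the same direction at a smaller size. Of 77 genes 54 fell and 5 rose by ratio, and 50 fell and 4 rose by Cy3 alone, with medians of -1.26 and -1.40. Cytochrome c1 (Cyc1) had 68.8, 58.7 and 80.0 in muscle, against 212, 204 and 246 in brown adipose tissue, and fell by 2.08 ± 0.23. Cox6c and Uqcrb, small subunits of complexes IV and III, fell by 2.08 ± 0.20 and 2.04 ± 0.28. The ATP synthase stood apart in part: its ring subunit gene Atp5g1, known to be scarce in brown fat, had 81.2, 71.1 and 95.1 in muscle, against 12.2, 13.0 and 6.43 in brown adipose tissue, and rose by 2.89 ± 0.26 (adjusted p = 2.39e-08). Its copy Atp5g3 rose by 1.67 ± 0.22, the inhibitor gene Atpif1 by 1.81 ± 0.17 and the stalk subunit Atp5j by 1.17 ± 0.25, while the catalytic subunits Atp5a1 and Atp5b had -0.88 ± 0.21 and -1.17 ± 0.25. Atp5b passed by ratio alone, and Atp5a1 missed the fold minimum. Without brown adipose replicates 1 and 2, 52 fell by ratio and 39 by Cy3 alone, and after quantile normalization between arrays 20 fell.

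Complex IV has subunits in paired isoforms, a heart and skeletal muscle form and a general form, and the pairs did not behave alike. Cox6a2, the muscle form, had 157, 174 and 170 in muscle, against 25.9, 23.6 and 3.75 in brown adipose tissue, and rose by 3.83 ± 0.82 (adjusted p = 0.000696). Its general partner Cox6a1 had 127, 117 and 98.4 in muscle, against 264, 244 and 293 in brown adipose tissue, and fell by 2.87 ± 0.32 (adjusted p = 5.65e-07). The muscle form Cox7a1 went the other way, with 43.6, 29.8 and 50.6 in muscle, against 321, 282 and 348 in brown adipose tissue, and fell by 1.13 ± 0.29 (adjusted p = 0.00346), as did its general partner Cox7a2 (1.40 ± 0.17). Cox8b, also a muscle form, had 37.4, 36.2 and 33.4 in muscle, against 189, 169 and 195 in brown adipose tissue, and did not pass by ratio (0.46 ± 0.57, adjusted p = 0.54) or by Cy3 alone (-2.37 ± 0.96, adjusted p = 0.067). Cox8a, its general partner, fell by 1.92 ± 0.47. Cox7a1 and Cox8b are also members of the thermogenic list above. The ADP/ATP carriers also split, with the muscle form Slc25a4 at 270, 317 and 296 in muscle, against 110, 94.5 and 86.5 in brown adipose tissue, a rise of 2.13 ± 0.28. Its general partner Slc25a5 had -0.79 ± 0.22 and missed the fold minimum. Of other carriers, the aspartate-glutamate carrier Slc25a12 rose by 3.36 ± 0.30, while the CoA carrier Slc25a42 was at least 8.94-fold lower in muscle.

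Promoters of 2 respiratory chain genes that fell are shown for a site of nuclear respiratory factor 1, a regulator of many such genes. They were chosen after the search because the site (GCGC, any base, then TGCGC) lies before the start. The windows are chr5:115348959-115349208 on the minus strand for Cox6a1 and chr13:73328483-73328732 on the minus strand for Ndufs6, a complex I subunit that fell by 1.11 ± 0.20.
Cox6a1: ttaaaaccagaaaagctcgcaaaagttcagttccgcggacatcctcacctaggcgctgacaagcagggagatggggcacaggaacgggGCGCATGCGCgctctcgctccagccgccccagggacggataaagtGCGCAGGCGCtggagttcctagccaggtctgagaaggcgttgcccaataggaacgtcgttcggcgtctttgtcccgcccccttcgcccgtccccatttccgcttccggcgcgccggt
Ndufs6: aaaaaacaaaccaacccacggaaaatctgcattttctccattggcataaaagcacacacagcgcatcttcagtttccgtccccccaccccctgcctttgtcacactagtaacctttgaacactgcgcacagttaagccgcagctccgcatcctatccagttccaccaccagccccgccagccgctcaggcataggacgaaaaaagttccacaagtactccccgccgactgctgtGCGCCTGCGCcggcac
The capitals mark the site from -162 to -153 and from -117 to -108 in Cox6a1, the second read on the other strand, and from -16 to -7 in Ndufs6. The site was in 15 of 65 respiratory chain and ATP synthase genes with a window (23.1%), in none of the 17 thick filament or 19 thin filament and Z-disc genes, and in 8.5% of all genes with a window. Of the 15 genes, 9 fell and 2 rose in muscle by ratio, and 8 fell and 2 rose by Cy3 alone. Those that rose by ratio were Atp5g3 and Atpif1. In the whole list of 77 genes 54 fell and 5 rose by ratio, and 50 fell and 4 rose by Cy3 alone. Over all genes 10.6% fell by ratio and 14.4% by Cy3 alone. Whether the site goes with the fall was not tested. No respiratory chain gene with a window held a CArG box or a MEF2 site. The median GC content was 57.3% in the respiratory chain windows and 48.3% in those of the thick filament, and its part in these shares was not tested.

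**Figure D5:**
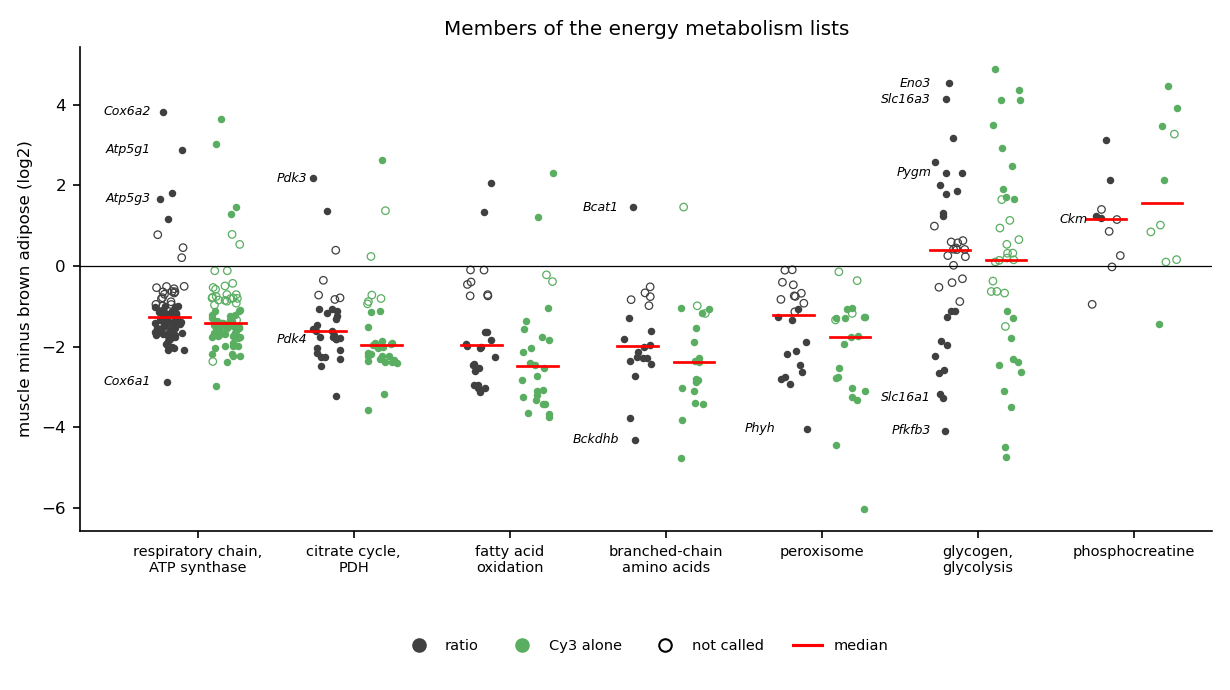
Muscle minus brown adipose differences (log2) of the members of 7 lists of energy metabolism, by ratio (dark) and by Cy3 alone (green), filled where called, with the list median in red. The lists of oxidation have medians between -1.20 and -2.49, glycolysis 0.41 by ratio and 0.16 by Cy3 alone, and phosphocreatine 1.18 and 1.57.

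Of 37 genes of glycogen and glycolysis 11 rose and 11 fell by ratio, and 10 rose and 11 fell by Cy3 alone. With Agilent's own log ratio 7 rose. Partner isoforms of the genes named by size are given below as examples picked after their values were seen. Muscle enolase (Eno3) had 276, 385 and 289 in muscle, against 49.5, 44.7 and 9.74 in brown adipose tissue, and rose by 4.54 ± 0.79 (adjusted p = 8.77e-05), while the general enolase Eno1 fell by 1.103 ± 0.31 by ratio and did not pass by Cy3 alone. The muscle mutase Pgam2 rose by 3.19 ± 0.74 and its partner Pgam1 fell by 2.65 ± 0.23. The muscle phosphofructokinase Pfkm rose by 2.58 ± 0.30, and the liver form Pfkl fell by 1.95 ± 0.25. The muscle glycogen phosphorylase Pygm, lost in McArdle disease, had 9.20, 7.88 and 11.3 in muscle, against 0.638, 0.591 and 0.0835 in brown adipose tissue, and rose by 2.31 ± 0.52. Its liver form Pygl fell by 2.24 ± 0.48, and the liver glycogen synthase Gys2 by 3.18 ± 0.56.

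The carriers of lactate differed in direction. The lactate exporter Slc16a3 had 36.6, 32.6 and 49.6 in muscle, against 3.30, 3.18 and 1.08 in brown adipose tissue, and rose by 4.15 ± 0.36 (adjusted p = 2.06e-08). The lactate carrier Slc16a1 had 4.61, 4.31 and 4.97 in muscle, against 55.1, 49.5 and 51.9 in brown adipose tissue, and fell by 3.27 ± 0.23 (adjusted p = 1.07e-09). Lactate dehydrogenase A (Ldha) differed by 0.02 ± 0.29, with overlapping arrays, and Ldhb, the form that favours pyruvate, fell by 1.87 ± 0.33. Pfkfb3, which makes the activator of phosphofructokinase, had 2.46, 1.37 and 1.25 in muscle, against 41.0, 48.2 and 24.5 in brown adipose tissue, and fell by 4.09 ± 0.46 (adjusted p = 4.93e-07). The insulin-regulated glucose transporter Slc2a4, used by both tissues, had 20.2, 18.2 and 22.0 in muscle, against 35.1, 24.3 and 35.3 in brown adipose tissue. Its difference by ratio, 0.26 ± 0.39, had the opposite direction to these levels and did not pass (adjusted p = 0.621). In the phosphocreatine and adenylate list 4 of 10 genes rose and none fell by ratio, and 4 rose and 1 fell by Cy3 alone. The genes that rose by both included adenylate kinase Ak1 (3.13 ± 0.38) and the creatine transporter Slc6a8 (2.14 ± 0.17), which were high in muscle on every array. The mitochondrial creatine kinase Ckmt2 did not pass by either measure (1.41 ± 0.89, adjusted p = 0.209 by ratio), and 2 genes of the list rose by ratio without muscle array 3, as did 2 by Cy3 alone without brown adipose array 3.

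Positional genes differed in both directions. Hox genes record the position of a tissue along the body, with high numbers in each cluster toward the tail and the limb tips. Of 36 positional and limb patterning genes 11 rose and 10 fell by ratio, and 12 rose and 10 fell by Cy3 alone. Hoxc9 had 3.50, 2.80 and 3.39 in muscle, against 0.0884, 0.0700 and 0.0527 in brown adipose tissue, and rose by 4.64 ± 0.28 (adjusted p = 1.44e-10). Hoxa10, Hoxc10 and Hoxa11 were not above background on any brown adipose array and were at least 13.1-fold, 6.11-fold and 5.42-fold higher in muscle. Pitx1, a factor of the hindlimb, had 3.27, 3.69 and 1.69 in muscle, against 0.136, 0.103 and 0.0179 in brown adipose tissue, and rose by 3.40 ± 0.28 (adjusted p = 8.57e-09). Hoxa5 had 0.149, 0.0570 and 0.1503 in muscle, against 1.41, 0.874 and 1.43 in brown adipose tissue, and fell by 2.60 ± 0.21 (adjusted p = 8.59e-09). Hoxa4 and Hoxb3 fell by 2.54 ± 0.24 and 2.23 ± 0.19, and Tbx5, a factor of the forelimb, by 1.79 ± 0.33. The Hox genes that fell had numbers 1 to 5 and those that rose 4 to 11, with Hoxd4 and Hoxa7 the lowest of the latter. Without brown adipose replicates 1 and 2, 4 fell by Cy3 alone.

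Genes of tendon, cartilage and bone held many of the largest rises. All 8 tendon markers rose by each measure, with medians of 4.53 and 5.79 and summed levels of 55.3, 76.0 and 70.7 in muscle, against 3.55, 2.59 and 0.831 in brown adipose tissue. Kera, Fmod, Comp and tenomodulin (Tnmd), matrix and membrane proteins of tendon, rose by 5.44 ± 0.36, 5.27 ± 0.24, 4.96 ± 0.24 and 4.75 ± 0.39. Lists of cartilage and bone genes were added after these values were seen and are described without weight. All 18 cartilage genes and 12 of 14 bone genes rose by ratio, and 18 and 11 by Cy3 alone. Type II collagen (Col2a1), the collagen of cartilage, had 13.7, 28.8 and 38.4 in muscle, against 0.0678, 0.0797 and 0.0915 in brown adipose tissue, and rose by 4.80 ± 0.27. Osteopontin (Spp1), a matrix protein of bone, had 16.4, 18.9 and 25.3 in muscle, against 0.316, 0.173 and 0.190 in brown adipose tissue, and had the largest rise among called genes whose arrays did not overlap and that were above background on all 3 muscle arrays, 6.23 ± 0.44 (adjusted p = 1.43e-09). The collagenase Mmp13 and the growth cartilage gene Ucma were at least 34.1-fold and 43.9-fold higher in muscle. Cartilage genes summed to 63.8, 113 and 132 on the muscle arrays, against 1.48, 1.45 and 1.34 on the brown adipose arrays, and the part of such cells in the muscle samples was not tested beyond these sums.

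Markers of other cell types were counted in the same way. Over all genes 13.2% rose and 10.6% fell by ratio, and 14.6% and 14.4% by Cy3 alone. Some counts below lie near these shares. Of 12 fibroblast and matrix genes 10 rose by ratio and 6 by Cy3 alone, with sums of 911, 1136 and 819 in muscle, against 291, 273 and 212 in brown adipose tissue. Of 14 endothelial markers none passed by ratio and 2 fell by Cy3 alone, with sums of 90.2, 79.2 and 79.4 in muscle, against 218, 198 and 194 in brown adipose tissue. No macrophage, erythroid or stress marker passed by either measure (of 13, 6 and 12), and of 12 lymphocyte markers 1 fell by Cy3 alone. Of 11 cardiac muscle markers 4 rose and 1 fell by ratio, and 5 rose and 1 fell by Cy3 alone. Of 9 Schwann cell and nerve markers 5 rose and 1 fell by each measure. Of 10 smooth muscle markers 5 rose by ratio and 4 by Cy3 alone, and none fell. Of 10 white adipose markers 4 rose by ratio, while 3 rose and 1 fell by Cy3 alone. Of 8 skin epithelium markers 2 rose by ratio and 1 by Cy3 alone. Of 5 sex-linked genes none passed by ratio and 1 fell by Cy3 alone, with sums of 4.83, 4.91 and 4.87 in muscle, against 9.80, 10.2 and 11.6 in brown adipose tissue. The list joins Xist with the Y-linked Ddx3y, Eif2s3y, Kdm5d and Uty, so its sum mixes markers of both sexes. Of these genes, 2 were well above background on no muscle array, and each was on at least 1 brown adipose array. Whether the tissues differed in sex was not tested.

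Several of the largest falls were in genes not yet described. The carboxylesterase Ces1d was at least 92.7-fold lower in muscle, the peroxisomal thioesterase Acot4 at least 14.3-fold and the kinase gene Sgk2 at least 23.1-fold. Cpn2, Adtrp, Acsm3 and Pon1 were at least 21.4-fold, 12.6-fold, 10.3-fold and 9.17-fold lower. None of these 7 genes was well above background on any muscle array. Prkar2b, the protein kinase A subunit through which adrenergic signals act in fat, had 6.78, 3.67 and 4.34 in muscle, against 220.4, 219 and 271 in brown adipose tissue, and fell by 5.13 ± 0.27 (adjusted p = 5.48e-11). Mpzl2, an adhesion protein, had 0.187, 0.181 and 0.200 in muscle, against 18.2, 19.7 and 20.7 in brown adipose tissue, and fell by 5.57 ± 0.22 (adjusted p = 6.14e-13). Itpka and Sec14l4 fell by 4.93 ± 0.19 and 5.35 ± 0.52, the second with 1 muscle array of 3 above background. Among the largest rises not yet named, Gatm, the first enzyme of creatine synthesis, had 16.4, 19.6 and 16.6 in muscle, against 0.972, 0.654 and 0.179 in brown adipose tissue, and rose by 4.88 ± 0.46 (adjusted p = 5.54e-08). Col22a1, a collagen of the muscle-tendon junction, rose by 5.03 ± 0.23, the metalloproteinase inhibitor Timp2 by 4.69 ± 0.23 and the growth factor binding protein Igfbp2 by 4.67 ± 0.37. The fibrillar collagen Col11a1 and the cartilage genes Snorc and Epyc rose by 5.26 ± 0.42, 5.33 ± 0.28 and 4.75 ± 0.30, and the bone sialoprotein gene Ibsp by 5.03 ± 0.25. Snorc and Ibsp were each well above background on 1 of 3 brown adipose arrays.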

How the data were processed

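The authors deposited the scanner output of 28 two-colour Agilent arrays as spot intensity values and as log10 ratios of Cy5 over Cy3, per the file headers. The deposited value table repeats those log10 ratios (largest difference 0). Agilent Feature Extraction was version 10.5.1.1 per the file headers and 8.5.1.1 per the submitters' processing notes. The growth protocol in the labels describes organoid cultures and gives nothing on the tissues.

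From the deposited median intensity values, the background was corrected with normexp (offset 50) and dyes were normalized by loess in limma 3.58.1 (R 4.3.3), with 1639 control spots of 45018 left out and outlier spots (0.688%) set aside. Probes had to stand well above background in Cy3 on 2 or more of the 28 arrays (31064 of 41174), and each gene was taken from its brightest probe. Of the 21029 genes, 16786 were named by a match to RefSeq tables and 4243 keep the name in the files. The log2 ratio was fitted over all 13 groups (lmFit and eBayes, two-sided, residual degrees of freedom 15). For Cy3 alone, log2 of Agilent's deposited processed signal minus the 75th percentile of the array was fitted in the same way. The code of the fit was checked on simulated log ratios with independent errors of equal spread in all groups. These held no effect of scan day and no shift of Cy5, so the check does not cover them. Of 1937 called genes with several probes, 11 had probes that differed in sign by more than 1. Replicate numbers were not taken to pair the arrays across tissues.

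The comparison, its gene lists and the naming rule were chosen with earlier results of these data known. The rule took the 15 largest rises and falls, up to 4 of each in every list and a set of key genes. Chosen after their values were seen were the lists of cartilage and bone and these genes: Myh3, Myh8, Tnnc2, Tnni2, Cacna1s, Chrne, Musk, Myog, Mef2a, Mef2d, Pax7, Dmd, Utrn, Fbxo32, Igf2, Ppara, Fitm1, Bmp8b, Cs, Pdk4, Atp5j, Atp5a1, Atp5b, Ndufs6, Cox8a, Slc25a5, Eno1, Pfkl, Pygm, Pygl, Ldha, Ldhb, Hoxa11, Hoxa7, Hoxd4, Tbx5 and Ucma. The promoters shown and the alternatives with Cy3 alone other than the main one were also chosen then. RefSeq promoters are of GRCm38.p6. Some genes that the rule names are not reported here.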

Additional observations from a re-analysis of the deposited data

How the results depend on the processing

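The count of 5009 genes called became 9888 with no fold minimum (4871 higher and 5017 lower in muscle) and 1375 with a log2 difference of at least 2 (807 higher and 568 lower). Leaving out each replicate in turn gave 4746 to 5105 genes, 2579 to 2865 higher and 2066 to 2277 lower. With Agilent's own log ratio, median-centred, 2620 genes were higher and 3310 lower. Quantile normalization between arrays gave 2087 higher and 1576 lower. Slide and scan day as random blocks gave 4945 and 4786 genes. With Cy3 alone and slide as a block, 7 thick filament, 11 thin filament and Z-disc, 12 excitation-contraction coupling and 1 slow isoform genes rose. For Cy3 alone, the 6 arrays fitted by themselves gave 7377 genes, 3848 higher and 3529 lower in muscle. Without brown adipose replicates 1 and 2, 5059 genes were called by ratio and 3814 by Cy3 alone. A replicate block on the 6 arrays gave 5047 genes, 2820 higher and 2227 lower, and called 16 thick filament and 12 fast isoform genes higher, as did the 6 arrays without the block. The deviations of same-numbered arrays correlated at 0.137, -0.041 and 0.082, and the numbers were not taken as pairs. With 3 arrays of a tissue these values cannot exclude a pairing. Changes of sign were counted only for genes called in the main setting or in the alternative. Of 182 named genes, 4 changed sign in this way, under Cy3 alone scaled to the 75th percentile and after quantile normalization: Plin1 (-5.13 and -5.74), Cidea (-5.05 and -6.47), Adipoq (-3.79 and -3.94), and Cox8b, not called at the first scaling and at -2.61 after the second. The cause was not tested. With Agilent's log ratio 163 of the 182 kept their call, and its direction where they were called, and with Cy3 alone 166 did. The 3 arrays of a tissue limit the precision, and dim probes have only a bound. Scan day and tissue cannot be told apart.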
